A study of Mus musculus with 13 samples.

Results

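The 8 genes described here belong to the YAP pathway: Ctgf (now Ccn2), Cyr61 (now Ccn1), Ankrd1, Amotl2, Lats2, Axl, Yap1 and Tead1. They were taken by name from the arrays, which gave 11 of the 41174 probes, and 7 of the 8 could be tested among 17642 genes. RNA was measured on 1-colour Agilent mouse arrays in mammary organoids, which are fragments of epithelium freed from the gland or tumor by collagenase and trypsin. Organoids came either from normal glands of FVB mice or from the largest tumor of MMTV-PyMT mice of 12 to 16 weeks. In these mice the mammary tumor virus promoter drives the polyoma middle T oncogene in mammary epithelium. No age is stated for the normal mice in the sources used here. Organoids of each tissue were embedded in Matrigel, a basement membrane extract, or in a 3 mg/ml gel of collagen I from rat tails. Every group was kept in the same medium with insulin, transferrin and 2.5 nM FGF2 and collected on day 4. Each of the 4 groups held 3 arrays of separate mice, with mice A, B and D for normal organoids in Matrigel and mice A, B and C for the other groups. Within a tissue the same letter is the same animal in both gels, and the letters of normal and tumor mice name different animals.

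YAP (gene Yap1) and its paralog TAZ (gene Wwtr1) are coactivators that lack a DNA-binding domain and bind DNA through TEAD transcription factors. The Hippo kinase cascade, in which MST kinases (Stk3, Stk4) activate LATS kinases (Lats1, Lats2), phosphorylates YAP and TAZ and keeps them out of the nucleus. Cell spreading, stiffness of the matrix and tension of actin favour nuclear YAP, so that RNA of genes such as Ctgf, Cyr61 and Ankrd1 is widely used as a readout of its activity. Amotl2 and Lats2 are targets whose products restrain YAP. An array of this kind measures RNA and neither the phosphorylation nor the place of the YAP protein.

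TEAD factors recognise GGAATG, and the stretch upstream of the transcription start was read for it because several of these genes are textbook TEAD targets. RefSeq windows of 250 bases upstream of the annotated start (build GRCm38.p6) were given for 6 of the 8 genes. GGAATG on either strand, which reads CATTCC on the other strand, stood in the windows of 5 of these 6 genes, against 12.6% of all 32851 windows. The members were counted per gene and the background per window, so the figures are not in like units. Known TEAD targets were among the genes read, so this comparison tests nothing about them. Ankrd1 had 2 matches, as 1.02% of windows have 2 or more, and Lats2 had none in its 2 windows. The AP-1 motif TGANTCA, found in 6.75% of windows, was in none of the members' windows. The first pair of lines gives the whole windows of the genes with the largest differences between groups, and the other lines give each match with its flanks. Each is written 5′ to 3′ on the strand of the gene, with the match in capitals. Cyr61 lies at chr3:145649986-145650235 on the minus strand, with its match 103 bases upstream of the start. Ankrd1 lies at chr19:36119845-36120094 on the minus strand, with matches 210 and 123 bases upstream. The stretch of Amotl2 is chr9:102717727-102717756 on the plus strand, 65 bases upstream of this start and inside the annotated gene. For Axl it is chr7:25788949-25788978 on the minus strand, 233 bases upstream, and for Yap1 chr9:8004720-8004749 on the minus strand, 141 bases upstream. Of the 250 bases of these windows, 191 for Axl and 42 for Yap1 lie inside the annotated gene, with the match outside it. A match describes the letters of the reference strain and not a bound site.
Cyr61: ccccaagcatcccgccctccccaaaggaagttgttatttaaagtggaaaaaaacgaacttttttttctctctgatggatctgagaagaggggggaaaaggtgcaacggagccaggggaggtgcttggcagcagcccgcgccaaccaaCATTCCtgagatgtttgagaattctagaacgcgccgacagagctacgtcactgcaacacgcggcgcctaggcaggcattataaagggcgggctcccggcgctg
Ankrd1: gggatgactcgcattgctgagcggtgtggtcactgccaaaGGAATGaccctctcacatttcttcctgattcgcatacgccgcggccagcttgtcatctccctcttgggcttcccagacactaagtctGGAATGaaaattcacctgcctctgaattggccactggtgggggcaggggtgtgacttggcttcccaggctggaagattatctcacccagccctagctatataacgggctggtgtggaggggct
Amotl2: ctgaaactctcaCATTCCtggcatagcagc
Axl: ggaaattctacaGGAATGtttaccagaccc
Yap1: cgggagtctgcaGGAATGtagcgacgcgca

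In Matrigel, 6 of the 7 tested members were higher in tumor than in normal organoids and none was lower: Ctgf, Cyr61, Ankrd1, Amotl2, Axl and Yap1 (limma, Benjamini-Hochberg adjusted p under 0.05). This was the comparison with the most differences of the whole array, in which 51.5% of all genes passed, 26.2% as higher and 25.4% as lower. Of the genes that passed, 50.8% were thus higher, and with normexp background correction 76.6% were. The median difference was 1.10 on the log2 scale over the 7 members and 0.10 over all genes. In collagen I none of the 7 passed between tumor and normal organoids, where 8.89% of all genes did, 3.79% as higher and 5.11% as lower. At an unadjusted p under 0.05, 1 member was higher there. The share of all genes at that unadjusted p was not taken in any comparison. Counts at an unadjusted p, here and below, therefore have no background to be read against.

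Between the gels no member passed in either tissue. In normal organoids only 7 genes of the whole array passed after adjustment (0.0397%, with 0.034% higher and 0.00567% lower in collagen I). At an unadjusted p under 0.05, to which those shares do not apply, 3 members were higher, Ctgf, Cyr61 and Ankrd1. In tumor organoids 27.5% of all genes passed between the gels, 15.2% as higher and 12.3% as lower in collagen I, but no member reached even the unadjusted p. The test of whether the gel difference itself differed between the tissues passed for 2.78% of all genes, 1.39% as higher and 1.39% as lower in tumor, and for no member. Cyr61 and Ankrd1 had an unadjusted p under 0.05 in that test, with a smaller difference in tumor organoids. The comparison of tissues in Matrigel and that of gels in normal organoids share the normal Matrigel arrays, so they are not independent of each other.

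Whether the 3 arrays of a group overlapped with those of another was read against the same count over all genes. Normal organoids in collagen I lay above those in Matrigel without overlap for 5 of 8 members (11.4% of all genes, and 10% lay below). Tumor organoids in collagen I lay above those in Matrigel for 1 member, Lats2 (19.2% of all genes, with 18.9% below). Tumor lay above normal organoids in Matrigel for 6 members (29.9% of all genes, with 27.6% below). In collagen I this held for 1 member, Yap1 (18.4%, with 14.8% below). No such share was taken for a group against all the others, or for both tumor groups against both normal groups. With 3 arrays against 3, an exact two-sided permutation test cannot go below a p of 0.1.

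**Figure D1:**
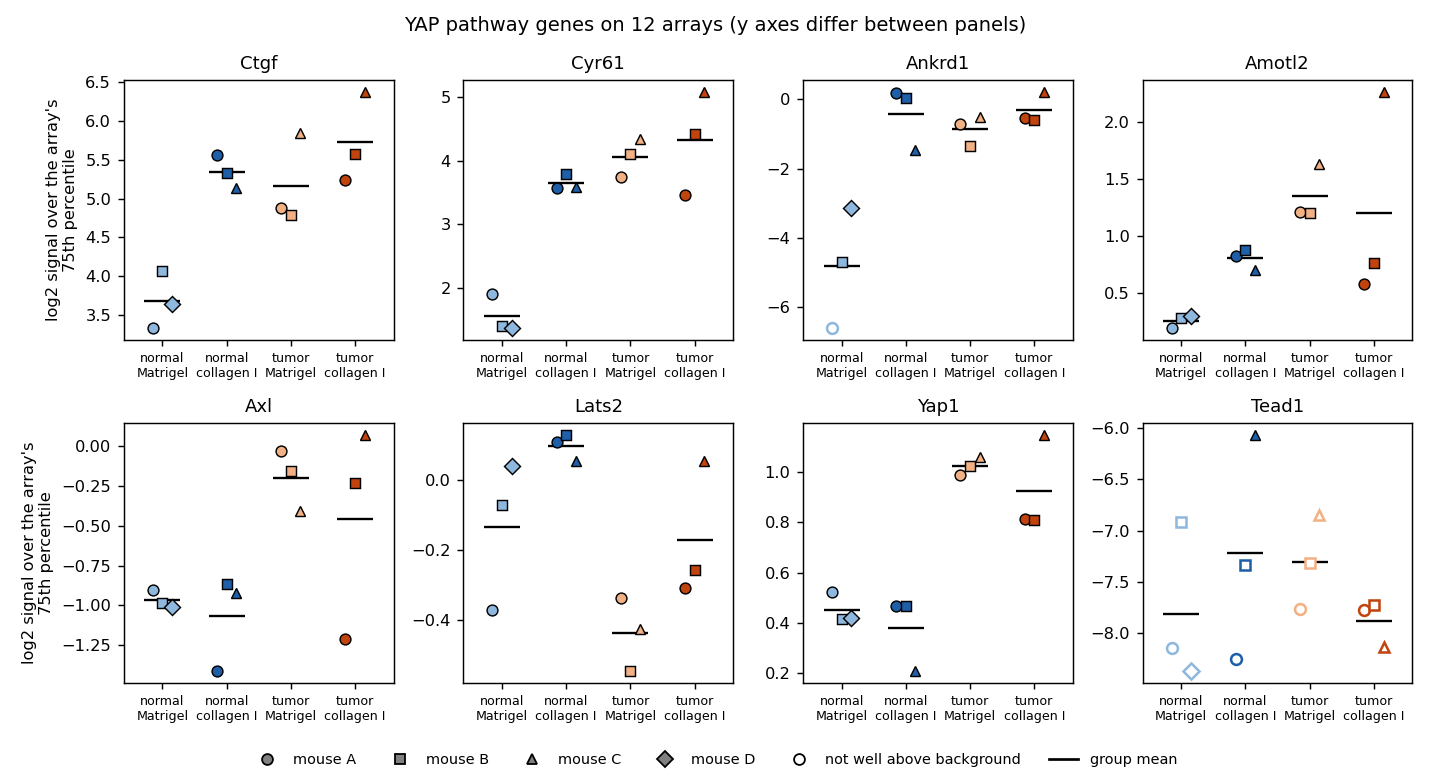
Level of each member (log2 of processed signal minus the array's 75th percentile) on each of the 12 arrays of the 4 groups. Circles, squares, triangles and diamonds are mice A, B, C and D, bars are group means, and hollow symbols are arrays on which the probe was not well above background. Ctgf, Cyr61 and Ankrd1 are lowest in normal organoids in Matrigel, Yap1 is higher in both tumor groups, and Tead1 is hollow on 11 of 12 arrays.

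**Figure D2:**
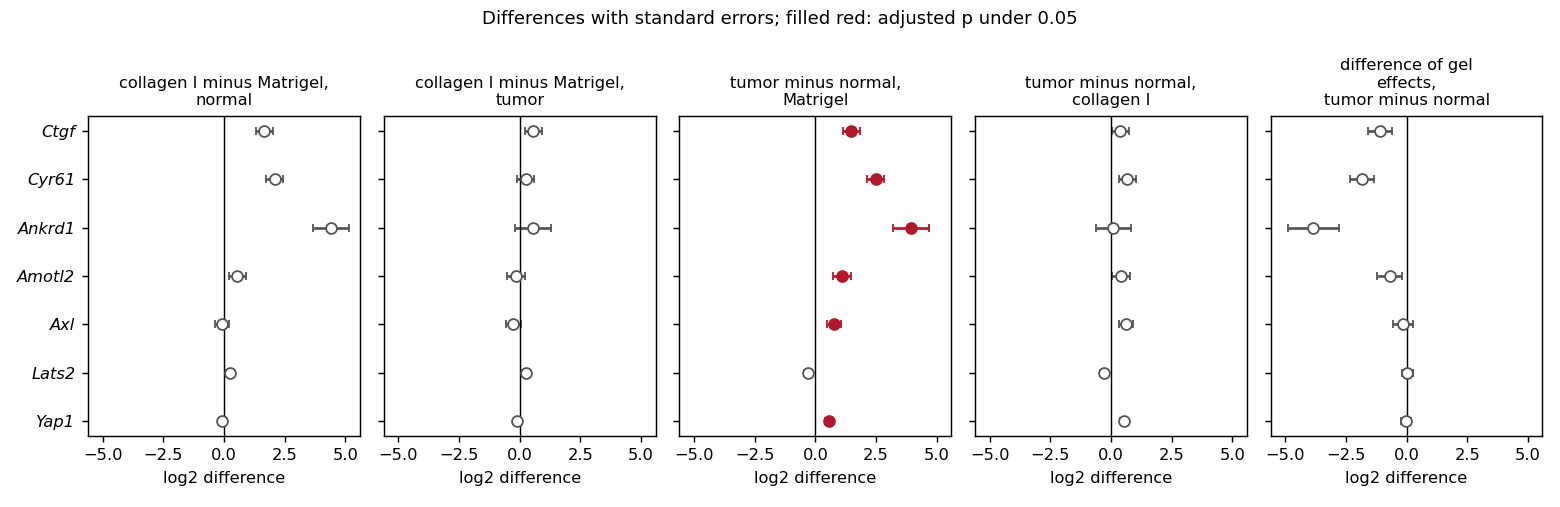
Difference of the 7 tested members in each of the 5 comparisons (log2), with bars for the fit's standard error. Filled red points have an adjusted p under 0.05, and these are the 6 members that were higher in tumor than in normal organoids in Matrigel.

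The arrays themselves differed in brightness along the same lines. The 75th percentile of processed signal was 383 to 570 intensity units on the 3 tumor Matrigel arrays, 691 to 812 in tumor collagen I and 671 to 1216 on the normal arrays. Each level below is therefore given relative to that percentile of its own array, as log2, and says nothing of RNA per cell. Spots well above background made up 56.6% to 71.4% of an array, lowest in tumor Matrigel. In log2 over the 75th percentile, the spike-in controls read -0.32 to 0.36 on the tumor Matrigel arrays and -2.28 to -1.47 on the other arrays of the batch. The part of these in the results was not tested.

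Ctgf and Cyr61 encode secreted matricellular proteins of the CCN family that bind integrins and heparan sulfates. The Ctgf probe lies at chr10:24349402-24349461 in build mm7, which the array's design names. In normal organoids Ctgf read 3.33, 4.06 and 3.64 in Matrigel (mice A, B and D) and 5.56, 5.34 and 5.13 in collagen I. Tumor organoids read 4.88, 4.78 and 5.85 in Matrigel and 5.24, 5.57 and 6.38 in collagen I. Normal organoids in Matrigel were the low group, below every array of the other 3 groups. The group means ± SD (n = 3 mice) were 3.68 ± 0.37 there, 5.17 ± 0.59 in tumor Matrigel, 5.34 ± 0.22 in normal collagen I and 5.73 ± 0.59 in tumor collagen I, and the upper 3 did not differ beyond their spread. In Matrigel Ctgf was 2.8-fold higher in tumor organoids (1.49 ± 0.35, log2 ± SE, limma adjusted p = 0.00544). That call was lost with quantile normalization (0.92, limma adjusted p = 0.0762), with the authors' values (0.88, limma adjusted p = 0.0918) and with the slide as a fixed block (1.41, limma adjusted p = 0.129). Between the gels the difference was 1.66 ± 0.35 in normal organoids (limma adjusted p = 0.123) and 0.56 ± 0.35 in tumor organoids (limma adjusted p = 0.257). The test of those differences against each other gave -1.10 ± 0.50 (limma adjusted p = 0.192).

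The probe of Cyr61 is at chr3:145544387-145544446 (mm7). Normal organoids gave 1.91, 1.41 and 1.38 in Matrigel and 3.57, 3.79 and 3.59 in collagen I. In tumor organoids the values were 3.75, 4.10 and 4.34 in Matrigel and 3.46, 4.42 and 5.09 in collagen I. Again normal organoids in Matrigel lay below every array of the other 3 groups. The means ran in the order 1.57 ± 0.30, 3.65 ± 0.12 (normal collagen I), 4.06 ± 0.30 (tumor Matrigel) and 4.32 ± 0.82 (tumor collagen I, SD, n = 3), and the neighbours among the upper 3 overlapped. Cyr61 was 5.64-fold higher in tumor than in normal organoids in Matrigel (2.50 ± 0.35, limma adjusted p = 0.000373), the lowest adjusted p among the members, and passed under each of the 11 other settings and with any 1 array left out. In collagen I the tissues differed by 0.67 ± 0.35 (limma adjusted p = 0.281), or by 1.10 without tumor collagen I mouse A, where it passed (limma adjusted p = 0.0309). The gel difference was 2.08 ± 0.35 in normal organoids (limma adjusted p = 0.0736) and 0.26 ± 0.35 in tumor organoids (limma adjusted p = 0.609). The former passed with the slide as a random block (2.06, limma adjusted p = 0.0452), and without tumor collagen I mouse A (limma adjusted p = 0.0186) or mouse C (limma adjusted p = 0.0361), whose spread enters the shared error. The gel difference in tumor minus that in normal organoids was -1.83 ± 0.50 (limma adjusted p = 0.0675), and this passed without normal Matrigel mouse A (-1.997, limma adjusted p = 0.0426) or tumor collagen I mouse C (-2.21, limma adjusted p = 0.0269). It also passed with batch 1 averaged in (-1.92, limma adjusted p = 0.0314) and with the slide as a random block (-1.89, limma adjusted p = 0.037).

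Of the other CCN genes, 3 were tested. In Matrigel 2 of them passed as lower in tumor organoids (25.4% of all genes): Wisp1, at least 14.6-fold lower (limma adjusted p = 0.000383), and Nov, at least 1.21-fold lower (limma adjusted p = 0.0117). Neither was well above background on any tumor Matrigel array, and neither call held with normexp background correction, where Wisp1 differed by -0.90 (limma adjusted p = 0.222) and Nov turned to 1.21 (limma adjusted p = 0.0384), higher in tumor. Nov also lost its call with the slide as a fixed block (limma adjusted p = 0.202) and without normal Matrigel mouse D (limma adjusted p = 0.0505). In collagen I Wisp1 differed by -3.16 between the tissues (limma adjusted p = 0.021), which no longer passed with normexp (-2.25, limma adjusted p = 0.0573), with the slide as a fixed block (limma adjusted p = 0.183) or without normal collagen I mouse B or C or tumor collagen I mouse B (limma adjusted p of 0.0745, 0.0852 and 0.0793). Wisp1 was at least 4.41-fold higher in collagen I than in Matrigel in tumor organoids (limma adjusted p = 0.00813), a difference that turned to -0.15 with normexp background correction.

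Ankrd1, a nuclear ankyrin repeat protein known best from muscle and a standard YAP target, had the widest range of the members (probe at chr19:35813004-35813063, mm7). Normal organoids in Matrigel read -6.59, -4.70 and -3.14, and mouse A, the lowest, did not rise well above background. Normal organoids in collagen I read 0.19, 0.04 and -1.47. The tumor values were -0.73, -1.35 and -0.52 in Matrigel and -0.56, -0.59 and 0.22 in collagen I. Normal organoids in Matrigel lay below all other arrays and differed more among themselves than any other group. Their mean was -4.81 ± 1.73 (SD, n = 3), against -0.86 ± 0.43 in tumor Matrigel, -0.41 ± 0.92 in normal collagen I and -0.31 ± 0.46 in tumor collagen I. Those 3 means did not differ beyond their spread. In Matrigel Ankrd1 was 15.4-fold higher in tumor organoids (3.95 ± 0.73, limma adjusted p = 0.00155). The size depended on the low arrays: it was 3.06 without normal Matrigel mouse A (limma adjusted p = 0.00212), 2.61 with normexp background correction (limma adjusted p = 0.000787) and 2.15 with the slide as a fixed block (limma adjusted p = 0.0251).

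In normal organoids Ankrd1 measured 4.40 ± 0.73 more in collagen I than in Matrigel, 21.1-fold (limma adjusted p = 0.0736). This size includes normal Matrigel mouse A, which was not well above background. With 1 array left out the difference ran from 3.51 to 5.23 (limma adjusted p of 0.0197 to 0.306). This difference passed in 4 other settings: without normal Matrigel mouse D (5.23, limma adjusted p = 0.0197), with batch 1 averaged in (3.86, limma adjusted p = 0.0354), with normexp background correction (2.79, limma adjusted p = 0.0461) and with the slide as a random block (limma adjusted p = 0.0474). In tumor organoids the gels differed by 0.55 ± 0.73 (limma adjusted p = 0.601). The gel difference in tumor minus that in normal organoids was -3.84 ± 1.04 (limma adjusted p = 0.0672), and it passed without normal Matrigel mouse A (-2.95, limma adjusted p = 0.0429) or mouse D (-4.68, limma adjusted p = 0.048). It also passed with batch 1 averaged in (-3.30, limma adjusted p = 0.0262) and with the slide as a random block (-3.60, limma adjusted p = 0.0463).

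Amotl2 encodes an angiomotin family protein that tethers YAP at cell junctions and in the cytoplasm (probe at chr9:102424871-102424931, mm7). Normal organoids read 0.19, 0.27 and 0.30 in Matrigel and 0.83, 0.87 and 0.70 in collagen I. Tumor organoids read 1.21, 1.21 and 1.63 in Matrigel and 0.57, 0.76 and 2.27 in collagen I. The 2 normal groups and the tumor Matrigel group kept apart from one another, while tumor collagen I reached from below the normal collagen I arrays in mouse A to above the tumor Matrigel arrays in mouse C. The means ± SD were 0.25 ± 0.06, 0.80 ± 0.09, 1.20 ± 0.93 (tumor collagen I) and 1.35 ± 0.25 (tumor Matrigel), of which the upper 3 held neighbours within their spread. In Matrigel Amotl2 was 2.14-fold higher in tumor organoids (1.10 ± 0.36, limma adjusted p = 0.0272). This call did not hold without normal Matrigel mouse A, B or D (limma adjusted p of 0.0597, 0.0631 and 0.0609) or without tumor Matrigel mouse B or C (limma adjusted p of 0.0521 and 0.0805), nor with quantile normalization (limma adjusted p = 0.0501) or the slide as a fixed block (limma adjusted p = 0.105). The gel difference was 0.55 ± 0.36 in normal (limma adjusted p = 0.747) and -0.15 ± 0.36 in tumor organoids (limma adjusted p = 0.794). Without tumor collagen I mouse C the latter was -0.68 and passed (limma adjusted p = 0.0296), as did the test between the tissues (-1.23, limma adjusted p = 0.0345).

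Lats2, a kinase that phosphorylates YAP and is itself a YAP target, was the only tested member that did not pass in tumor against normal organoids in Matrigel. Its brightest probe (chr14:52557891-52557950, mm7) read -0.37, -0.07 and 0.04 in normal Matrigel and 0.11, 0.13 and 0.05 in normal collagen I. Tumor values were -0.34, -0.54 and -0.43 in Matrigel and -0.31, -0.26 and 0.05 in collagen I. The groups lay close together, with means ± SD of -0.44 ± 0.10 in tumor Matrigel, -0.17 ± 0.20 in tumor collagen I, -0.14 ± 0.21 in normal Matrigel and 0.10 ± 0.04 in normal collagen I. Tumor collagen I and normal Matrigel did not differ beyond their spread. Collagen I lay above Matrigel without overlap in each tissue, by 0.23 ± 0.17 in normal (limma adjusted p = 0.783) and 0.26 ± 0.17 in tumor organoids (limma adjusted p = 0.261). In Matrigel tumor organoids read -0.30 ± 0.17 against normal (limma adjusted p = 0.153), and this passed with batch 1 averaged in (-0.49, limma adjusted p = 0.0168).

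Another of the 4 Lats2 probes went the other way. It was designed on the transcript AY015062, which the files describe as the alternatively spliced LATS2C, and lies at chr14:52590323-52590382 (mm7), away from the 3 probes of NM_015771. On this probe normal organoids read -2.87, -2.78 and -2.89 in Matrigel and -2.35, -2.30 and -2.21 in collagen I. Tumor organoids read -1.75, -1.004 and -1.85 in Matrigel and -2.06, -2.03 and -1.49 in collagen I. Every tumor array lay above every normal array. Such separation within a single gel was shared by 29.9% of all genes in Matrigel and 18.4% in collagen I. In Matrigel the difference was 1.32 ± 0.24 (limma over 26606 probes, adjusted p = 0.00128), and it passed in every alternative run, at 1.05 to 1.83. The other 3 probes gave -0.07 (limma adjusted p = 0.808), -0.33 (limma adjusted p = 0.196) and -0.30 (limma adjusted p = 0.157) in the same fit. In collagen I the AY015062 probe differed by 0.43 between the tissues (limma adjusted p = 0.316), and between the gels by 0.56 in normal (limma adjusted p = 0.501) and -0.33 in tumor organoids (limma adjusted p = 0.324).

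Within an array, the AY015062 probe minus each NM_015771 probe was higher in tumor than in normal Matrigel by 1.38, 1.64 and 1.62, with no overlap of the arrays for any of the 3 pairs. In collagen I the same quantities were 0.52, 0.81 and 0.69, again without overlap. The exact two-sided permutation p was 0.1 for each of these, the smallest that 3 arrays against 3 allow. Between the gels (collagen I minus Matrigel) the quantities were 0.435, 0.43 and 0.33 in normal organoids, and only the first pair overlapped. In tumor organoids they were -0.43, -0.40 and -0.59, and only the last pair did not overlap. The pairs share the AY015062 probe, and probes of NM_015771 overlap in part, so the pairs are not independent. Other genes with several probes were not compared in this way. On these arrays the probes thus changed unequally relative to one another. The AY015062 probe, followed up after seeing the data, was dim. Before scaling its processed signal was 91.8, 159.5 and 147.8 in normal Matrigel and 170, 191 and 120.6 in tumor Matrigel, which overlap. The part of this low signal and of array brightness in the differences was not tested. Which transcripts each probe takes up in these cells was not measured. The average of all Lats2 probes, 0.16 between the tissues in Matrigel, covers opposite signs.

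**Figure D3:**
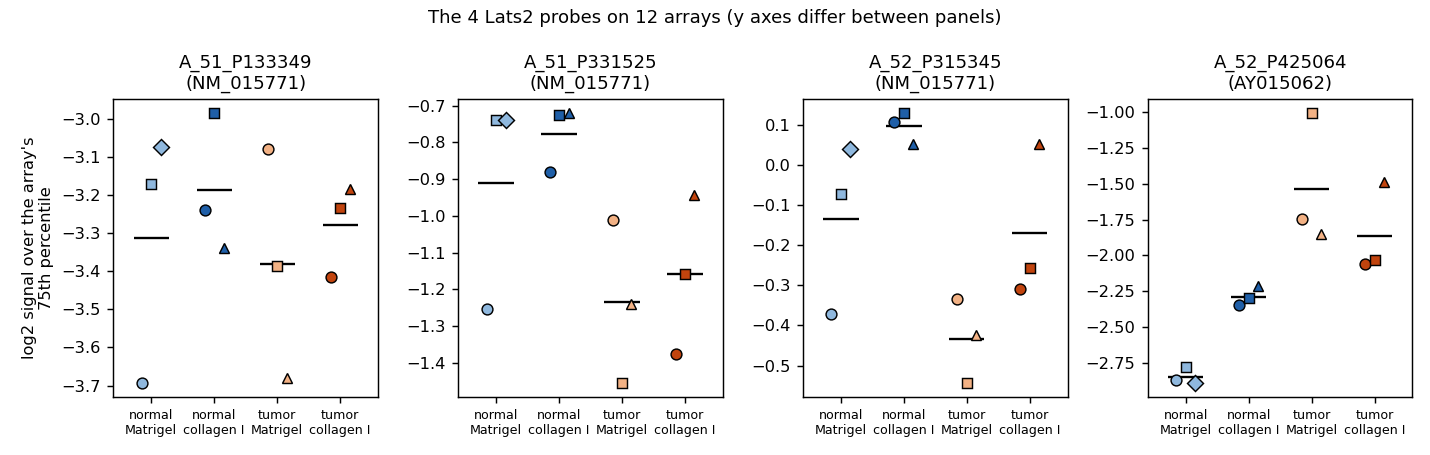
Level of the 4 Lats2 probes on the 12 arrays, on the same log2 scale as the levels in the text. Symbols are mice. The AY015062 probe is higher on every tumor array than on every normal array. For each of the 3 probes of NM_015771 the tumor and normal Matrigel arrays overlap.

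Axl is a receptor tyrosine kinase of the TAM family that binds Gas6 (probe at chr7:22531966-22532025, mm7). Normal organoids read -0.90, -0.99 and -1.01 in Matrigel and -1.41, -0.86 and -0.92 in collagen I. Tumor organoids read -0.03, -0.16 and -0.41 in Matrigel and -1.21, -0.23 and 0.07 in collagen I. Tumor Matrigel lay above both normal groups, and in tumor collagen I mouse A stood with the normal arrays. The order of the means ± SD was -1.07 ± 0.30 in normal collagen I, -0.97 ± 0.06 in normal Matrigel, -0.46 ± 0.67 in tumor collagen I and -0.20 ± 0.19 in tumor Matrigel, and each neighbouring pair was within its spread. In Matrigel Axl was 1.7-fold higher in tumor organoids (0.77 ± 0.30, limma adjusted p = 0.049), just under the threshold. Among the fits with 1 array left out it passed only without tumor collagen I mouse A or C, and leaving out any of the other 10 arrays gave 0.0536 to 0.124 (limma adjusted p). The call was also lost with the mouse as a random block (0.76, limma adjusted p = 0.0614) and with no filter on dim probes (limma adjusted p = 0.0613). In collagen I the difference was 0.61 ± 0.30 (limma adjusted p = 0.245), and 0.99 without tumor collagen I mouse A (limma adjusted p = 0.0196). Gel differences were -0.10 ± 0.30 in normal (limma adjusted p = 0.967) and -0.26 ± 0.30 in tumor organoids (limma adjusted p = 0.544). Of 4 other TAM receptors and ligands 1 passed as higher in tumor organoids in Matrigel (26.2% of all genes), the receptor Tyro3 (0.62, limma adjusted p = 0.0184). That call was lost with normexp background correction (0.43, limma adjusted p = 0.0683), the slide as a fixed block (limma adjusted p = 0.0553) and the 2 groups alone (limma adjusted p = 0.0646), and without normal Matrigel mouse D or tumor Matrigel mouse B or C (limma adjusted p of 0.066, 0.0565 and 0.0602). Gas6 differed by 0.47 there (limma adjusted p = 0.177) and by 0.64 between the gels in normal organoids (limma adjusted p = 0.529).

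Yap1 itself separated the tissues more than the gels (probe at chr9:7956436-7956495, mm7). It read 0.52, 0.42 and 0.42 in normal Matrigel and 0.47, 0.47 and 0.21 in normal collagen I. Tumor values were 0.99, 1.03 and 1.06 in Matrigel and 0.82, 0.81 and 1.15 in collagen I. All 6 tumor arrays lay above all 6 normal arrays. Within a gel, 29.9% (Matrigel) and 18.4% (collagen I) of all genes were higher in tumor organoids without overlap. In order, the means ± SD were 0.38 ± 0.15 in normal collagen I, 0.45 ± 0.06 in normal Matrigel, 0.92 ± 0.19 in tumor collagen I and 1.02 ± 0.04 in tumor Matrigel, and the gels did not differ beyond the spread in either tissue. In Matrigel Yap1 was 1.49-fold higher in tumor organoids (0.57 ± 0.16, limma adjusted p = 0.0105), a call that was lost with the slide as a fixed block (limma adjusted p = 0.0908). In collagen I the difference was 0.54 ± 0.16 (limma adjusted p = 0.0538), which passed with the slide as a random block (limma adjusted p = 0.04). The gel differences were -0.07 ± 0.16 in normal (limma adjusted p = 0.953) and -0.10 ± 0.16 in tumor organoids (limma adjusted p = 0.657), and they differed from each other by -0.03 ± 0.22 (limma adjusted p = 0.95).

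Tead1 could not be followed on the probe that carries its name (chr7:108815507-108815566, mm7), which was well above background only in normal collagen I mouse C and was not tested. Another pair of probes, named 2610024B07Rik in the files, matched Tead1 through the reference names and was well above background on all 12 arrays. The brighter had means ± SD of 2.25 ± 0.29 in normal Matrigel, 2.76 ± 0.08 in normal collagen I, 2.14 ± 0.09 in tumor Matrigel and 2.49 ± 0.15 in tumor collagen I. Its difference between the tissues in Matrigel was -0.11 (limma adjusted p = 0.617), and between the gels it was 0.51 in normal (limma adjusted p = 0.387) and 0.35 in tumor organoids (limma adjusted p = 0.163). The dimmer probe passed in no comparison either.

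Of the other TEAD genes, Tead4 differed most in Matrigel, 4.7-fold higher in tumor organoids (2.23 ± 0.22, limma adjusted p = 5.59e-05), and its call held in every alternative run. Of 6 tested genes for the YAP paralog, TEADs and cofactors, 3 were higher (26.2% of all genes) and 2 lower (25.4%), or 2 and 1 with normexp background correction. Tead3 was higher by 0.72 (limma adjusted p = 0.019), a call lost with the 2 groups alone (limma adjusted p = 0.0503) and without normal Matrigel mouse D or tumor Matrigel mouse B or C (limma adjusted p of 0.0757, 0.0698 and 0.0546). Tead2 differed by 0.66 (limma adjusted p = 0.0121), but by 0.45 with quantile normalization (limma adjusted p = 0.0522), 0.20 with normexp (limma adjusted p = 0.481), 0.14 in the authors' values (limma adjusted p = 0.64), 0.24 with batch 1 averaged in (limma adjusted p = 0.404) and 0.39 without normal collagen I mouse B (limma adjusted p = 0.241). The paralog Wwtr1 was lower (-0.57, limma adjusted p = 0.0257), opposite to Yap1, but with the mean of its probes this was -0.03 (limma adjusted p = 0.897), and the call was also lost without normal Matrigel mouse A, B or D or tumor Matrigel mouse B or C (limma adjusted p of 0.051 to 0.0773). Vgll3, a TEAD cofactor, was lower too (-2.74, limma adjusted p = 0.000282), but not with normexp (-0.19, limma adjusted p = 0.645). In tumor organoids Tead4 was lower in collagen I than in Matrigel (-2.11, limma adjusted p = 0.000783), and Wwtr1 was higher there (0.82, limma adjusted p = 0.0113), though not with the mean of its probes (0.35, limma adjusted p = 0.105). Tead2 differed by -0.63 between those gels (limma adjusted p = 0.0293), a call lost with the mouse as a fixed block (limma adjusted p = 0.073), in 8 of the 10 other settings besides leaving out an array, among them normexp (-0.20, limma adjusted p = 0.523), and without normal collagen I mouse B, tumor Matrigel mouse B or tumor collagen I mouse A or B (limma adjusted p of 0.0563 to 0.284). Vgll3 was also higher in collagen I (1.96, limma adjusted p = 0.00484), although with normexp background correction its difference turned to -0.16. Tead4 read -2.11 ± 0.18 in normal Matrigel, -2.16 ± 0.15 in normal collagen I, 0.13 ± 0.21 in tumor Matrigel and -1.98 ± 0.40 in tumor collagen I (SD, n = 3). The tumor Matrigel arrays were the high ones for Tead4, where the normal Matrigel arrays had been the low ones for Ctgf, Cyr61 and Ankrd1. The gel difference of Tead4 differed between the tissues (-2.06 ± 0.31, limma adjusted p = 0.0175), a call lost without normal Matrigel mouse B (limma adjusted p = 0.0575), normal collagen I mouse A (limma adjusted p = 0.0579) or mouse B (limma adjusted p = 0.0689), and with the mouse as a fixed block (-2.23, limma adjusted p = 0.104). In normal organoids limma passed none of the 6 between the gels, with 2 higher at an unadjusted p under 0.05, where Wwtr1 differed by 0.58 (limma adjusted p = 0.366).

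Gels could also be compared within an animal, for normal mice A and B and tumor mice A, B and C. Collagen I minus Matrigel for Ctgf was 2.23 and 1.27 in the normal mice and 0.36, 0.79 and 0.54 in the tumor mice. For Cyr61 it was 1.66 and 2.38 in normal and -0.29, 0.32 and 0.75 in tumor mice. For both genes each normal mouse had a larger gel difference than each tumor mouse. The share of all genes for which this held was not taken. Ankrd1 gave 4.74 in normal mouse B and 0.17, 0.75 and 0.74 in the tumor mice, while normal mouse A was not well above background in Matrigel and gives no measured difference. Amotl2 had 0.64 and 0.60 in normal mice, but -0.63, -0.45 and 0.64 in tumor mice, so the tumor mice did not share a direction. Lats2 was higher in collagen I in all 5 animals, by 0.03 to 0.48. How many of all genes kept 1 direction in all 5 animals was not counted. Axl ranged from -1.18 to 0.48 and Yap1 from -0.22 to 0.09, with both signs in each tissue.

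**Figure D4:**
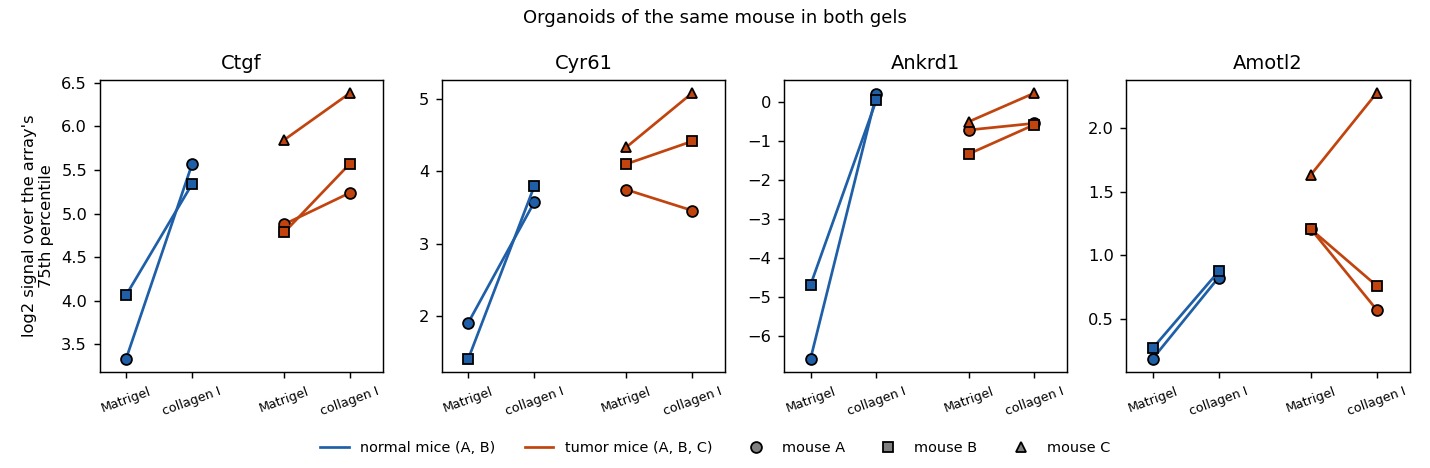
Level of Ctgf, Cyr61, Ankrd1 and Amotl2 in Matrigel and collagen I in the same animal (log2 minus the array's 75th percentile). Lines join the gels of normal mice A and B and tumor mice A, B and C. The lines of Ctgf and Cyr61 are steepest in the normal mice; for Ankrd1 the Matrigel point of normal mouse A was not well above background, so the slope of its line is not measured.

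Some slides held arrays of more than 1 group, and there arrays were compared within a slide. Normal collagen I exceeded normal Matrigel on slides 6 and 3 by 1.07 and 1.92 for Ctgf, 2.18 and 2.19 for Cyr61, and 3.23 and 3.33 for Ankrd1. On slide 3 tumor exceeded normal Matrigel by 1.14 for Ctgf, 2.72 for Cyr61, 1.80 for Ankrd1, 0.91 for Amotl2, 0.86 for Axl and 0.61 for Yap1, with -0.58 for Lats2. On slide 5 tumor minus normal organoids in collagen I (1 array each) was 1.05 for Ctgf, 1.29 for Cyr61, 0.18 for Ankrd1, 1.398 for Amotl2, -0.08 for Lats2, 0.94 for Axl and 0.68 for Yap1. On slide 8, with different tumor mice, collagen I minus Matrigel was -0.61 for Ctgf, -0.88 for Cyr61 and -0.04 for Ankrd1, the opposite sign to the group means. The RNA of normal Matrigel mice A and B had also been hybridised in an earlier batch, labelled batch 1. Those repeats differed from batch 2 by 1.33 and 0.35 for Ctgf, -0.43 and -0.16 for Cyr61, and -0.97 and -0.09 for Yap1. The repeats of Lats2 differed by 0.82 and 0.29, of Amotl2 by 0.06 and -0.11, and of Axl by -0.405 and -0.295. For Ankrd1 it was 0.35 in mouse B, and mouse A was not well above background in batch 2. For Ctgf and Yap1 in mouse A, and for Lats2 in both mice, the repeat difference was near or above the size of the group differences.

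Of 24 other YAP and TAZ target genes tested, 9 were higher and 3 lower in tumor organoids in Matrigel, where 26.2% and 25.4% of all genes were, with a median difference of 0.30 against 0.10 over all genes. With quantile normalization or the authors' values 7 were higher and 3 lower. The lower ones were Igfbp3, which binds insulin-like growth factors (-4.81, limma adjusted p = 4.95e-05), Ccdc80, a matrix protein (-3.45), and Rbms3, an RNA-binding protein (-2.86). In collagen I none of the 24 was higher and 3 were lower in tumor organoids: Areg, an EGF receptor ligand (-2.71), Igfbp3 (-2.41) and Rbms3 (-1.39), where 5.11% of all genes were lower. In collagen I the call for Rbms3 was lost with normexp background correction (-1.08, limma adjusted p = 0.0719), with the slide as a fixed block (limma adjusted p = 0.184) and without normal collagen I mouse A, B or C or tumor collagen I mouse B (limma adjusted p of 0.0584 to 0.106), and that for Areg with the slide as a fixed block (limma adjusted p = 0.0693) and without normal collagen I mouse A or C (limma adjusted p of 0.0539 and 0.0662). The fibroblast and pericyte markers given below were lower in the same comparisons, and their part in these genes was not tested. Between the gels in tumor organoids 2 were higher in collagen I (15.2% of all genes), Igfbp3 (2.22) and Rbms3 (1.38), and 4 lower (12.3% of all genes), among them the stress-response genes Gadd45b (-1.56) and Gadd45a (-1.44). With normexp none was higher and 2 were lower, with Igfbp3 at 1.23 (limma adjusted p = 0.0708) and Rbms3 at 0.23 (limma adjusted p = 0.586). The call for Gadd45b was lost with quantile normalization (limma adjusted p = 0.065), the authors' values (limma adjusted p = 0.066) and the mouse as a fixed block (limma adjusted p = 0.0954), and without tumor Matrigel mouse A or B or tumor collagen I mouse A or B (limma adjusted p of 0.0558 to 0.127). In normal organoids limma passed none, with 1 higher at an unadjusted p under 0.05.

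Of 21 Hippo regulators 6 were higher and 7 lower in tumor organoids in Matrigel, shares near those of all genes (26.2% and 25.4%). The counts were 4 and 8 with quantile normalization and 5 and 6 with normexp. Of the kinases, Lats1 was lower (-1.21, limma adjusted p = 0.00364), and Stk3 was lower (-0.99, limma adjusted p = 0.0111), while Stk4 differed by -0.34 (limma adjusted p = 0.14). Nf2, an upstream activator of the cascade, differed by 0.35 (limma adjusted p = 0.129). Mob1b, a LATS cofactor, was lower (-1.62, limma adjusted p = 0.000293), but not with the mean of its probes (-0.34, limma adjusted p = 0.206). Fat4, an atypical cadherin placed upstream of Hippo, was not well above background in tumor Matrigel and was at least 1.36-fold lower, but with normexp background correction its difference turned to 1.07. In collagen I limma passed none of the 21 between the tissues, with 3 higher and 1 lower at an unadjusted p under 0.05, and in normal organoids none between the gels, with 1 higher. In tumor organoids 3 were higher and 2 lower in collagen I, where 15.2% and 12.3% of all genes were. Mob1b (1.11) and the kinase Taok1 (0.97) were among the former and Rassf5 (-0.86) among the latter. With normexp 1 was higher and 1 lower, and Mob1b differed by 0.27 (limma adjusted p = 0.395). The call for Rassf5 was lost without tumor Matrigel mouse B (limma adjusted p = 0.0622) or tumor collagen I mouse A (limma adjusted p = 0.0674).

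Targets of SRF and its coactivator MRTF, which also respond to actin tension, were listed together with Srf and the MRTF genes Mkl1 and Mkl2. Of these 18 genes 6 were higher and 5 lower in tumor organoids in Matrigel, beside 26.2% and 25.4% of all genes. That balance depended on the scaling, with 3 higher and 10 lower with quantile normalization or in the authors' values and 4 and 8 with normexp. The median difference went from -0.03 to -0.59 with quantile normalization. The largest were lower: Cnn1 (-5.48), Acta1 (-4.60), Myl9 (-4.03) and Tagln (-2.68), all genes of contractile cells. In collagen I these were the only 4 that passed, again lower in tumor organoids (5.11% of all genes). Tagln did not pass without normal collagen I mouse A or C (limma adjusted p of 0.0517 and 0.0581), nor Acta1 with the slide as a fixed block (limma adjusted p = 0.0859). Between the gels in tumor organoids 2 of 18 passed, Tpm1 (0.78) and Vcl (0.65), both higher in collagen I (15.2% of all genes). Neither passed with the mean of its probes (limma adjusted p of 0.203 and 0.129). Vcl also did not pass without tumor Matrigel mouse A (limma adjusted p = 0.0544) or tumor collagen I mouse C (limma adjusted p = 0.0585). In normal organoids limma passed none, with 2 higher at an unadjusted p under 0.05.

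**Figure D5:**
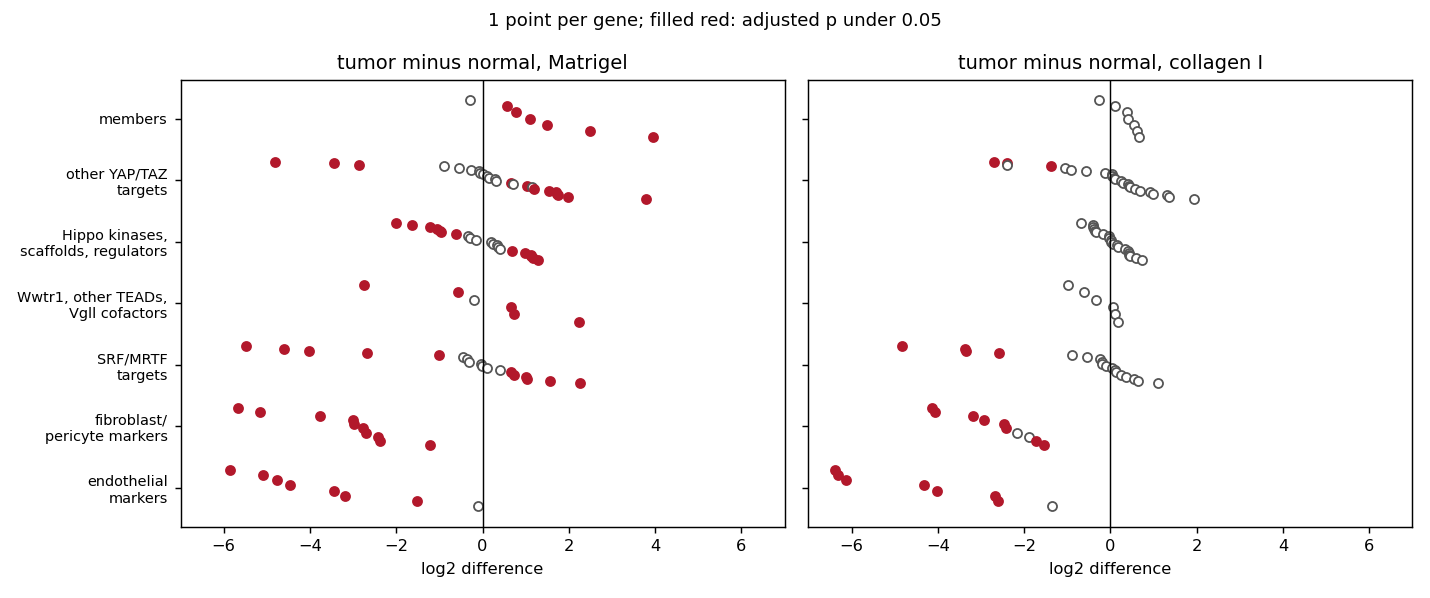
Difference between tumor and normal organoids for each gene of 5 pathway lists and of the fibroblast/pericyte and endothelial markers (log2 on the horizontal axis, 1 point per gene), in Matrigel on the left and collagen I on the right. Filled red points have a limma adjusted p under 0.05; in Matrigel the members' points lie above 0 except Lats2, the other pathway lists hold red points on both sides, and the marker lists hold red points below 0 only.

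The organoids also held different amounts of RNA of other cells, which moves with the same groups. All 9 luminal markers were well above background on every array, and their summed level (in units of the array's 75th percentile) was 647 to 900 in normal Matrigel, 618 to 726 in normal collagen I, 1110 to 1640 in tumor Matrigel and 657 to 838 in tumor collagen I. In tumor against normal organoids in Matrigel, 5 of 9 luminal markers were higher and 1 lower (26.2% and 25.4% of all genes). The direction turned with the scaling: the median difference of 0.82 became -0.22 with quantile normalization and -0.03 in the authors' values, each with 2 higher and 3 lower. Of 7 basal markers 1 was higher and 2 lower, and Oxtr was not well above background in tumor Matrigel (at least 19.2-fold lower). All 10 fibroblast and pericyte markers were lower in tumor organoids in Matrigel and 8 in collagen I (25.4% and 5.11% of all genes). With normexp background correction 6 and 5 were lower. Their summed levels were 20 to 129 in normal Matrigel, 31.6 to 75.9 in normal collagen I, 4.39 to 5.69 in tumor Matrigel and 6.01 to 10.9 in tumor collagen I. Of 8 endothelial markers 7 were lower in tumor organoids in each gel, or 6 in Matrigel and 5 in collagen I with normexp. Their sums were 5.87 to 14.2 in the normal groups and 0.26 to 0.773 in the tumor groups. Leukocyte markers summed to 36.5 to 56.6 in normal Matrigel, 91.5 to 105 in normal collagen I and 31.6 to 68.6 in the tumor groups. In normal organoids 6 of 8 were higher in collagen I at an unadjusted p under 0.05, none after adjustment. The share of all genes at that unadjusted p was not taken. Between the tissues in Matrigel 1 leukocyte marker passed as higher and 1 as lower in tumor organoids, or 5 and 1 with normexp. Adipocyte markers summed to 9.84 to 50.2 in normal and 0.585 to 1.5 in tumor organoids. Fewer cells of a type and less RNA per cell cannot be told apart in such samples. The part of these cells in the levels of Ctgf, Cyr61, Ankrd1, Amotl2, Lats2, Axl and Yap1 was not tested.

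Across the 12 arrays, which share 4 groups and the brightness differences above, the members fell into a loose order of likeness. Ctgf correlated with Cyr61 at Pearson r = 0.909 and with Ankrd1 at r = 0.892, and Cyr61 with Ankrd1 at r = 0.828. After the group means were taken out, Ctgf and Cyr61 kept r = 0.573 and Cyr61 and Ankrd1 had r = -0.061. Amotl2 followed Cyr61 (r = 0.828, and 0.788 within groups) and Yap1 (r = 0.768, and 0.796 within groups). Yap1 and Lats2 ran opposite over the groups (r = -0.587) but not within them (r = 0.368). Among 14440 genes well above background on all 12 arrays, the 3 most like Ctgf were Foxc1 (r = 0.949), Ptgs2 (r = 0.944) and 2210008N01Rik (r = 0.944). Those most like Cyr61 were Spsb1 (r = 0.974), Arid3a (r = 0.952) and Bhlhe41 (r = 0.952). For Amotl2 they were Gsto1 (r = 0.983), Rdh10 (r = 0.963) and ENSMUST00000057015 (r = 0.957), and for Axl they were Jun (r = 0.979), Cadm4 (r = 0.966) and Ctif (r = 0.946). Yap1 was most like Hcar2 (r = 0.97), Cdcp1 (r = 0.969) and Myo5b (r = 0.968), and Lats2 like Zbtb34 (r = 0.931), CF747846 (r = 0.93) and Tnks (r = 0.914). Each was picked as the highest of 14440 values of r, which describe these arrays only.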

How the data were processed

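RNA of 13 samples was hybridised to 14 1-colour Agilent arrays, and the 12 arrays of batch 2 entered the fits. The deposited intensity is Agilent's processed signal (Feature Extraction 9.5 per the file headers, 9.1 per the submitters' processing notes). The authors' deposited log2 values served as an alternative; their median was 5.92 to 5.98 per array, and the sources used here do not state how they were centred. From the intensities, log2 minus each array's 75th percentile was taken, without control spots or the 52 to 139 outlier-flagged spots per array, and spots of a probe were averaged. Probes had to stand well above background on all arrays of 1 or more groups and to have 2 or more values in each group, which left 26606, and the brightest probe stood for a gene. RefSeq accessions named 22951 probes (55.7%). Where a group was not well above background on any array, a fold is a lower bound ("at least"), taken against each dim array's lowest signal well above background or the probe's own signal, whichever was higher. limma 3.58.1 (R 4.3.3, with version 1.17.8 of data.table) used 1 term per group (residual df 8, prior df 2.73) with Benjamini-Hochberg adjustment over all genes; SE are the fit's. Precision is limited by 3 arrays a group. Figures used matplotlib 3.10.9.

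The members, 13 gene lists (128 of 136 genes tested) and the rule for named genes (members, the Hippo kinases and TEADs, up to 4 passing genes per list with the largest difference, and 3 genes of most like pattern) were chosen with earlier results of these data known. A gene that this rule names is not reported here. The pairing of gels by mouse comes from the labels, which name the same animal; deviations from group means correlated at 0.229 and -0.25 in normal mice A and B and at -0.0608, 0.329 and 0.424 in tumor mice A, B and C. Alternatives were the normalization, background correction, filters, probe rule, batch 1, mouse and slide as blocks, the 2 groups alone, and each array left out; the Lats2 probe of AY015062 was added after seeing the data. The fit was tested on simulated data.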

Additional observations from a re-analysis of the deposited data

Results flagged for a closer look

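For 2 genes that the report names, the gel difference differed between the tissues in the test of the difference itself. Tead4 had a gel difference of -2.11 in tumor and -0.05 in normal organoids, -2.06 apart (limma adjusted p = 0.0175). Gadd45a read 1.51 in normal Matrigel, 2.18 in normal collagen I, 2.70 in tumor Matrigel and 1.26 in tumor collagen I, so that its gel differences were -2.11 apart (limma adjusted p = 0.036). The call for Gadd45a was lost with quantile normalization (limma adjusted p = 0.067), normexp background correction (limma adjusted p = 0.146), the authors' values (limma adjusted p = 0.0702), no filter (limma adjusted p = 0.0745), the mouse as a fixed block (-2.50, limma adjusted p = 0.114), the slide as a fixed block (limma adjusted p = 0.0821) and in 6 of the 12 fits with 1 array left out. No member had such a difference past the threshold.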

How the results depend on the processing

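Of the members' differences under alternatives other than leaving out an array, 355 stayed on their side of the threshold, 10 passed only there and 8 no longer passed; with 1 array left out the counts were 394, 11 and 15. The sign turned for 16 and 17 of them, none of which passed under either setting. For members passing, normal organoids between the gels had 0, but 1 with normexp or batch 1 averaged in and 2 with the slide as a random block (0 to 1 with an array left out); tumor organoids had 0 (0 to 1). Tumor against normal had 6 in Matrigel, 3 with the slide as a fixed block and 4 to 6 with an array left out, and 0 in collagen I, 1 with the slide as a random block (0 to 2). The difference of gel effects had 0, but 2 with batch 1 averaged in or the slide as a random block (0 to 2). With the mouse as a replicate block, Axl no longer passed in Matrigel (0.76, limma adjusted p = 0.0614), Tead2 (limma adjusted p = 0.073) and Gadd45b (limma adjusted p = 0.0954) lost their calls in tumor organoids across the gels, and Stk3 gained one (0.72, limma adjusted p = 0.0487); no other member's call changed. With normexp background correction 5 results turned sign: Nov (1.21) and Fat4 (1.07) between tissues in Matrigel, and Wisp1 (-0.15), Fat4 (-0.70) and Vgll3 (-0.16) between gels in tumor organoids. It also moved the median difference of all genes in Matrigel from 0.10 to 0.43, and in tumor organoids between the gels from -0.06 to -0.32. The share of passing genes that were higher went from 55.4% to 39.2% in tumor organoids between the gels, from 42.6% to 56.9% in collagen I and from 50.1% to 10% for the difference of gel effects; of the 7 genes in normal organoids it was 85.7%, and 64.3% with quantile normalization, 100% with normexp and 66.7% with the authors' values. Passing genes moved from 7 to 0 (mouse or slide as a fixed block), 2 (the groups alone), 4 (normexp), 11 (strict filter or mean of probes), 12 (batch 1 averaged in), 14 (quantile) or 49 (slide as a random block) in normal organoids between the gels. In tumor organoids 4851 became 1239 with normexp, 2430 with the slide as a fixed block and 2089 with the groups alone. In collagen I 1569 became 761 with normexp, 949 with the strict filter and 191 with the slide as a fixed block. For the difference of gel effects 491 became 221 (quantile), 20 (normexp), 172 (authors' values), 61 (no filter), 2087 (batch 1 averaged in), 0 (mouse as a fixed block), 1565 (slide as a random block) or 1056 (slide as a fixed block). With 1 array left out the counts ran from 3 to 20, 2595 to 5103, 7132 to 9373 (tissues in Matrigel), 761 to 1876 and 33 to 1940. The cause was not tested. Dim probes such as Ankrd1 in normal Matrigel are limited by signal over background.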
